A study of Mus musculus with 15 samples.

Results

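Counts from ribosomal RNA (rRNA) were followed through 5 rows of the gene count table of mouse trigeminal ganglia (TG), out of 55573 rows in all. The rows were CT010467.1, Gm26917, Lars2, mt-Rnr1 and mt-Rnr2. They were found by gene symbol. As a set they had been selected on their counts in these samples, so their levels are a description, and their shares carry no test. The adjusted p-values given for single rows come from a fit of the whole table. They do not allow for that selection. The study asked whether a lipid applied to an injured cornea changes gene expression in the ganglion that innervates it. Male CD1 mice, 10 weeks old when purchased, were injured on the right cornea, where the epithelium and the anterior stroma were removed. The eye was then treated topically 3 times a day until day 12. Treatment was vehicle, RvD6 (labelled RvD6-standard) or its stereoisomer RvD6si (labelled RvD6-isomer). The lipid doses given to these animals were not found in the sources used here. Each group had 5 right TG, numbered 1 to 5 for vehicle, 6 to 10 for RvD6 and 11 to 15 for RvD6si. All 15 animals carried the injury, so no uninjured ganglion is among them.

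Ribosomes are built on rRNA, which makes up most of the RNA of any cell. In the nucleus RNA polymerase I copies many repeats of ribosomal DNA into a long precursor, and the precursor is trimmed in the nucleolus into the small-subunit and large-subunit rRNAs of the cytosol. Mitochondria carry a small circular genome with its own pair of rRNA genes, mt-Rnr1 for the small and mt-Rnr2 for the large subunit, which are copied together with most mitochondrial mRNAs from the same strand of DNA. Mature cytosolic rRNA has no poly(A) tail, whereas mitochondrial rRNAs end in a short one. The libraries were primed with oligo-dT on total RNA (adapted Smart-seq2), a step that favours RNA with a run of A.

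The rows are not equally clean measures of rRNA, and their sequences show where the counts could come from. CT010467.1 (ENSMUSG00000106106.2, annotated as rRNA) lies on the minus strand of chr17:39846353-39848827 (GRCm38). On the opposite strand the countable part of this gene opens with the conserved start of the small-subunit cytosolic rRNA, set in capitals in the first sequence. RefSeq places the small-subunit rRNA pseudogene Rn18s-rs5 at chr17:39846354-39848202, over 1849 bases. Gm26917 (ENSMUSG00000097971.3, a lincRNA) ends 11 bases before CT010467.1 begins, at chr17:39843013-39846341 on the plus strand, and its last 100 bases are shown second. The other 3 sequences are the surroundings of the longest run of A, in capitals, in the countable part of CT010467.1, in mt-Rnr1 and in mt-Rnr2, since such a run could take an oligo-dT primer. All are from GENCODE release 21 transcripts and are written 5′ to 3′ on the plus strand.
CT010467.1, start of the countable window, chr17:39846353-39846502: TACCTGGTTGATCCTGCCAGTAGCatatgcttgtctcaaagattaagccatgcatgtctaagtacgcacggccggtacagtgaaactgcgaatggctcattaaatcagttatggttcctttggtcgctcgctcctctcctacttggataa
Gm26917, last bases, chr17:39846242-39846341: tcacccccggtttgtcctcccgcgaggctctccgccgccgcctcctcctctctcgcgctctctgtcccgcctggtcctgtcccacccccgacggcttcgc
CT010467.1, longest A run of the window, chr17:39846828-39846932: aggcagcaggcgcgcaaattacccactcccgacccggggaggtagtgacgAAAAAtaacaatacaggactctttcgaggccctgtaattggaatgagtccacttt
mt-Rnr1, longest A run, chrM:655-759: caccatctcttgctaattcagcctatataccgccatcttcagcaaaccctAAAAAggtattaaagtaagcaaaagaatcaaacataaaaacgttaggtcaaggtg
mt-Rnr2, longest A run, chrM:1438-1544: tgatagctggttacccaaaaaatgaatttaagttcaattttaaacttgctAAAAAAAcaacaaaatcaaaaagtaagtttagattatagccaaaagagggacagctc

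The longest run of A had 7 bases in mt-Rnr2 and 5 in mt-Rnr1. Among transcripts within 10% of the same length, 25.2% had a run at least as long as that of mt-Rnr2, and 60.3% one as long as that of mt-Rnr1. Both mitochondrial rRNAs were rich in A, at 38.2% of bases in mt-Rnr2 and 37.8% in mt-Rnr1. Gm26917 differed most in composition, with 8.26% A, 69.1% G or C and no run of A longer than 4 bases, and 99.7% of transcripts of like length had a run as long. The countable window of CT010467.1 held a run of 5, which 49.6% of transcripts of its length also reached. Past that window, its transcript of 1849 bases held a run of 6 on the plus strand, at bases 815 to 820. Of transcripts of like length, 48.9% had a run as long. These are counts of letters and do not show where priming took place.

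CT010467.1 shares most of its exons with other annotated genes. Of its 2466 exonic bases, 644 (26.1%) belonged to no other gene, 605 at chr17:39846353-39846957 and 39 at chr17:39848789-39848827. The rest is overlaid by the lincRNAs Gm42418 and AY036118, and both were listed at 0 in all 15 samples. The table was counted without strand and without an option for reads that touch several genes, so the counts on CT010467.1 came from its free bases alone. Per length, CT010467.1 averaged 28655 CPM (counts scaled to a fixed library total) per kb of exon over the 15 samples, and 109724 per kb of free base. The nearby Gm26917 averaged 185 CPM per kb of exon, although both rows lie within the same stretch of chromosome 17.

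**Figure D1:**
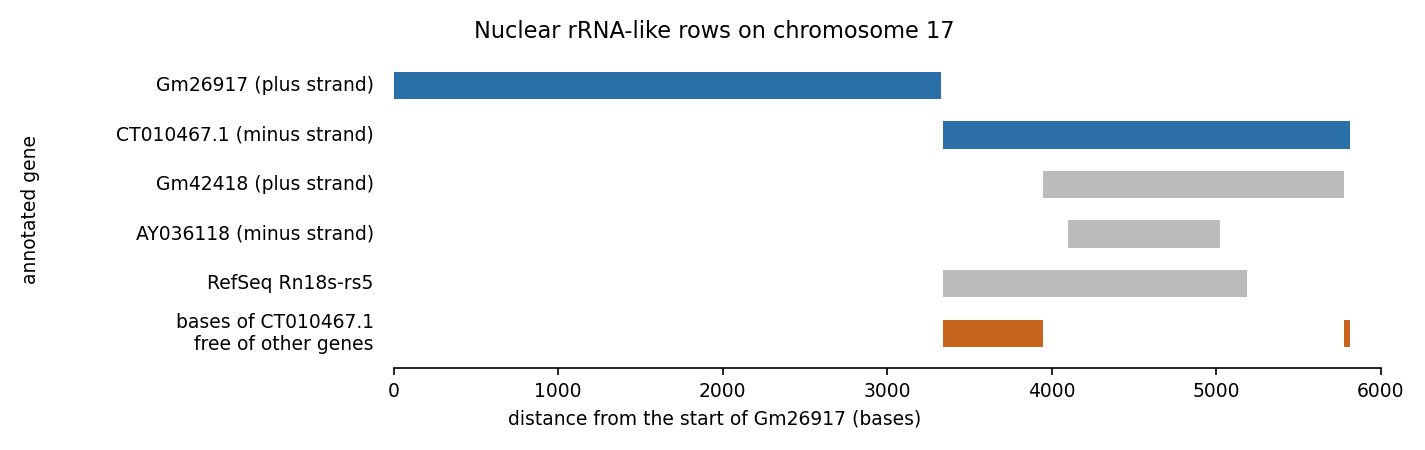
Map of the annotated genes around CT010467.1, as distance in bases from the start of Gm26917. Blue bars are the 2 rows described here, grey bars the other annotated genes, and orange bars the 605 and 39 bases of CT010467.1 that no other gene covers.

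CT010467.1 took up nearly all counts of its gene class. The annotation has 354 genes of type rRNA, of which CT010467.1 received 8134066 counts over the 15 samples. The other 353 together received 216 counts, and 292 of them had none. The repeats of ribosomal DNA are not fully assembled in the reference, so the number of gene copies behind the counts is unknown.

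mt-Rnr1 (ENSMUSG00000064337.1, chrM:70-1024) and mt-Rnr2 (ENSMUSG00000064339.1, chrM:1094-2675) are the single annotated copies of the mitochondrial rRNAs. They averaged 5896 and 26251 CPM per kb of exon. The 13 mitochondrial mRNAs, which encode subunits of the respiratory chain, ranged on the same scale from 168 for mt-Nd3 to 5986 for mt-Nd1. On these values mt-Rnr2 stood above every mitochondrial mRNA and mt-Rnr1 near the highest. Matches of the mRNAs to other genes, which could take up part of their reads, were not looked for. No pair of the 5 rows shared a matching stretch of transcript. With a rule of 90% identity over 75 bases, neither mitochondrial rRNA matched another gene. Below it, mt-Rnr2 matched Gm20594 at 88.5% over 435 bases, a row with 2098 counts in all samples. It also matched Cep295 at 77.9% over 662 bases, a row with 1094 counts.

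Lars2 (ENSMUSG00000035202.8, chr9:123366927-123462666, plus strand) is a protein-coding gene for the mitochondrial leucyl-tRNA synthetase, the enzyme that charges leucine onto its tRNA. Its row carried far more counts than those of its relatives, averaging 244 CPM per kb of exon, 52.1 times the median of 4.69 over the 18 other genes for mitochondrial synthetases. Those ranged from 0.410 for Vars2 to 117 for Gars, which, like Kars, also makes the cytosolic enzyme. Lars2 matched 5 other genes at the same identity and length, of which Ankrd44 was the most counted with 1361. The large-subunit cytosolic rRNA was not among the reference sequences used here, so a match of Lars2 to it was not looked for.

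In these libraries the 5 rows held between 7.94% and 16.1% of all counts, from 4125962 to 9903396 counts per ganglion (median 7756538). CT010467.1 was the most counted gene of the table, with 7.15% of the pooled counts, and mt-Rnr2 the second, with 4.16%. mt-Rnr1 ranked 6th (0.566%), Lars2 21st (0.277%) and Gm26917 169th (0.0597%). Counting error was small beside the spread between ganglia. The widest 95% Wilson interval of a single sample was 4.03% of the value on either side, for Gm26917 in RvD6si replicate 13, and 0.374% for CT010467.1 in RvD6si replicate 15, and such intervals cover counting error only.

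The groups differed in the summed share of the 5 rows. This sum does not measure all rRNA of a library. CT010467.1 was counted on 644 of its 2466 exonic bases, and Gm26917 and Lars2 are not annotated as rRNA. The 5 rows together held 12.2% ± 0.695 of counts with vehicle, 14.9% ± 1.18 with RvD6 and 9.27% ± 1.07 with RvD6si (SD, n = 5 each). The ranges were 11.2% to 13.0%, 13.6% to 16.1% and 7.94% to 10.5%, so no ganglion of any group lay inside the range of another. The difference of the means was -5.60 percentage points for RvD6si minus RvD6, -2.92 for RvD6si minus vehicle and 2.68 for RvD6 minus vehicle. In bulk tissue, fewer cells of a type and less RNA per cell cannot be told apart.

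**Figure D2:**
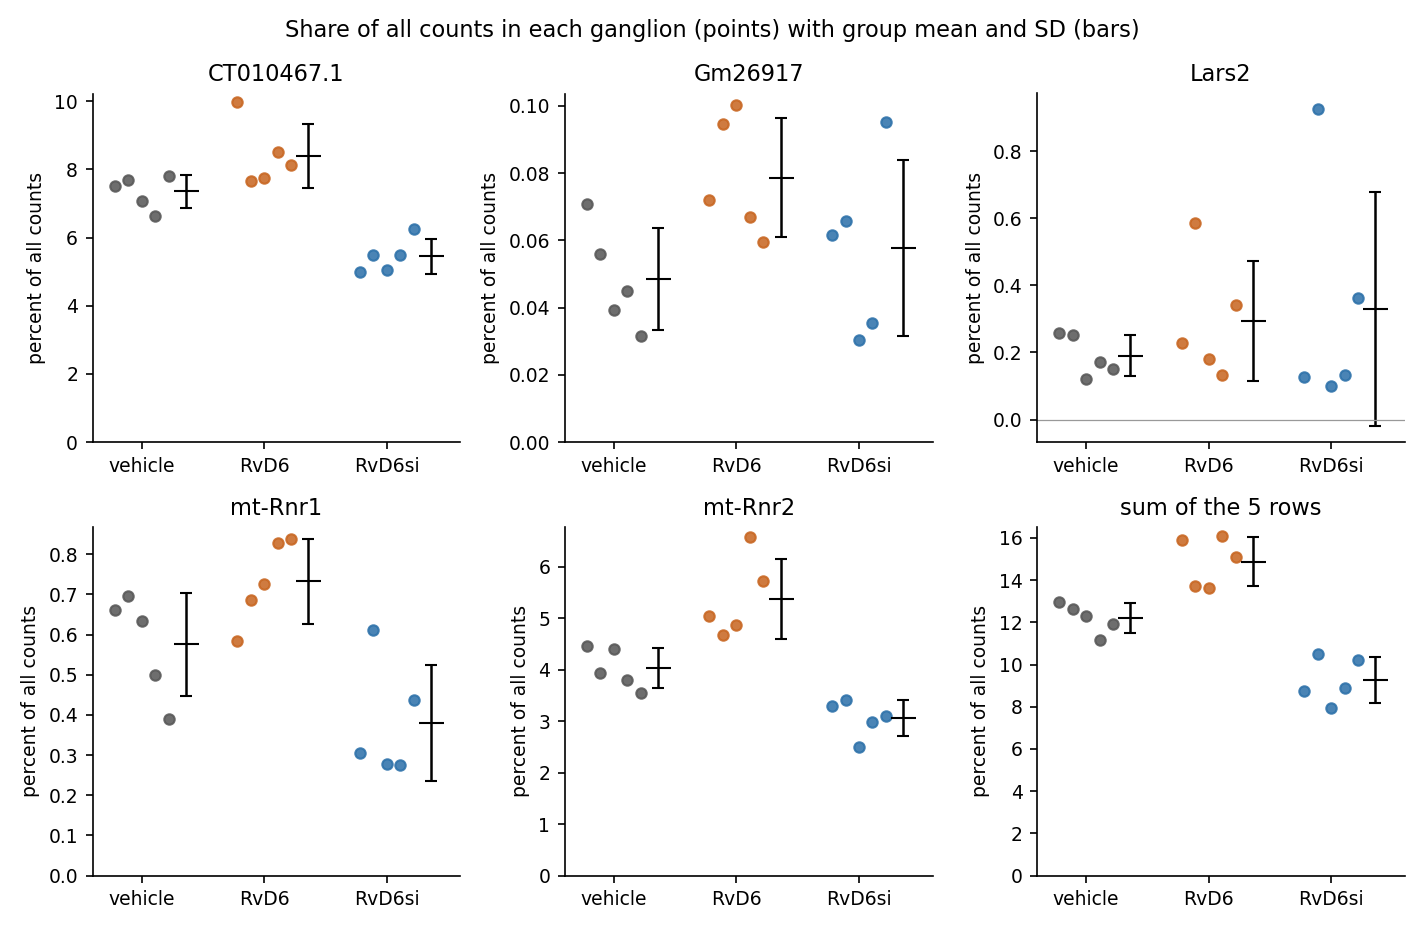
Percent of all counts on each row in each of the 15 ganglia (points, in order of replicate number) by group, with the group mean and SD beside them. CT010467.1 and mt-Rnr2 lie lowest in all 5 RvD6si ganglia, whereas Lars2 has 1 high RvD6si value of 0.924% and overlaps in all groups.

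CT010467.1, the nuclear row for the small-subunit rRNA, was lower in every RvD6si ganglion than in any other. With vehicle it took 7.52%, 7.69%, 7.08%, 6.65% and 7.81% of counts in replicates 1 to 5. With RvD6 the values were 9.97%, 7.66%, 7.74%, 8.51% and 8.12% in replicates 6 to 10. With RvD6si they were 4.98%, 5.50%, 5.04%, 5.48% and 6.24% in replicates 11 to 15. The RvD6si group did not overlap either of the others, while 3 of 5 RvD6 ganglia exceeded all vehicle ganglia. The group means were 7.35% ± 0.482, 8.40% ± 0.940 and 5.45% ± 0.506 (SD, n = 5 each).

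In the edgeR quasi-likelihood test across all 16567 genes that passed the filter on low counts, CT010467.1 fell by 0.51 on the log2 scale in RvD6si against vehicle (SE 0.086, adjusted p = 0.0217). Of all genes tested, 0.145% were called lower in this comparison and 0.670% in either direction, and 1.51% had RvD6si shares that lay below all vehicle shares. Against RvD6, CT010467.1 fell by 0.70 (SE 0.086, 95% interval -0.88 to -0.51, adjusted p = 0.00168 by edgeR). There 0.223% of genes were called lower, 0.235% in either direction, and 0.791% had all RvD6si shares below all RvD6 shares. Between RvD6 and vehicle the difference was 0.18 (95% interval 0.0023 to 0.36, unadjusted p = 0.0474) and did not pass adjustment (adjusted p = 0.362 by edgeR). Called genes were 0.00% in that comparison, 2256 genes had an unadjusted p below 0.05, and DESeq2 called 369. The decrease against vehicle lost its call without vehicle replicate 3 or 5 or RvD6si replicate 11 (adjusted p = 0.0583, 0.0652 and 0.0830 by edgeR), and with no filter on low counts (0.0754). Against RvD6 it was called with each of the 15 samples left out, and lost its call with the mean of skeletal muscle markers (adjusted p = 0.382 by edgeR) or of erythroid markers (0.359) as a covariate.

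mt-Rnr2, the large-subunit rRNA of the mitochondrion, separated the groups completely. It took 4.47%, 3.93%, 4.41%, 3.80% and 3.55% of counts in vehicle replicates 1 to 5. RvD6 replicates 6 to 10 held 5.04%, 4.67%, 4.86%, 6.57% and 5.71%. RvD6si replicates 11 to 15 held 3.29%, 3.41%, 2.50%, 2.99% and 3.10%. All RvD6si values were below all vehicle values, which were below all RvD6 values. The means were 4.03% ± 0.396, 5.37% ± 0.775 and 3.06% ± 0.353 (SD, n = 5 each).

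By edgeR mt-Rnr2 fell by 0.88 on the log2 scale in RvD6si against RvD6 (SE 0.102, 95% interval -1.10 to -0.67, adjusted p = 0.00126). It fell by 0.48 against vehicle (SE 0.102, 95% interval -0.69 to -0.27, adjusted p = 0.0364 by edgeR). In RvD6 against vehicle the log2 difference was 0.40 (95% interval 0.19 to 0.62, unadjusted p = 9.21e-04), which did not pass adjustment in edgeR (adjusted p = 0.129) and passed in DESeq2 (adjusted p = 0.0372). In that comparison 2.09% of genes had all RvD6 shares above all vehicle shares. The decrease against RvD6 was called with each of the 15 samples left out, and lost its call with the muscle (adjusted p = 0.418 by edgeR) or the erythroid covariate (0.189). The decrease against vehicle lost its call without any 1 of the 5 vehicle samples (adjusted p 0.0717, 0.0742, 0.119, 0.0764 and 0.0776 for replicates 1 to 5) or without RvD6si replicate 11, 13, 14 or 15 (0.0965, 0.0731, 0.0955 and 0.0539), all by edgeR. It also lost its call with no filter (adjusted p = 0.135 by edgeR), with at least 10 counts in every sample (0.0548) and with the mean of skeletal muscle markers as a covariate (0.0562).

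mt-Rnr1, the small-subunit mitochondrial rRNA, had the same order of means with more spread. Its shares were 0.661%, 0.696%, 0.632%, 0.50% and 0.390% in vehicle replicates 1 to 5. They were 0.585%, 0.686%, 0.726%, 0.829% and 0.837% in RvD6 replicates 6 to 10. In RvD6si replicates 11 to 15 they were 0.305%, 0.610%, 0.278%, 0.274% and 0.437%. RvD6si replicate 12 lay among the vehicle and RvD6 values, and replicate 15 lay among the vehicle values. All RvD6si ganglia but replicate 12 (4 of 5) lay below all RvD6 ganglia, and 3 of 5 lay below all vehicle ganglia. The means were 0.576% ± 0.128, 0.732% ± 0.105 and 0.381% ± 0.144 (SD, n = 5 each).

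mt-Rnr1 fell by 1.02 on the log2 scale in RvD6si against RvD6 (SE 0.199, 95% interval -1.43 to -0.60, adjusted p = 0.0392 by edgeR). Against vehicle the RvD6si difference was -0.68 (95% interval -1.09 to -0.26, unadjusted p = 0.00296) and did not pass adjustment (adjusted p = 0.101 by edgeR). DESeq2 called it (adjusted p = 0.0270), as did edgeR without RvD6si replicate 12 (adjusted p = 0.0215). In RvD6 against vehicle the difference was 0.34 (95% interval -0.077 to 0.75, adjusted p = 0.474 by edgeR). The call against RvD6 was lost without vehicle replicate 4 (adjusted p = 0.0518), RvD6 replicates 8, 9 or 10 (0.0902, 0.0843 and 0.0963) or RvD6si replicates 11, 13 or 14 (0.134, 0.114 and 0.119), each left out alone in edgeR, and in a fit of the 2 lipid groups alone (0.0912).

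Gm26917, the lincRNA beside CT010467.1, was not called in any comparison. Vehicle replicates 1 to 5 held 0.0708%, 0.0559%, 0.0394%, 0.0449% and 0.0316% of counts. RvD6 replicates 6 to 10 held 0.0722%, 0.0947%, 0.100%, 0.0669% and 0.0596%. RvD6si replicates 11 to 15 held 0.0617%, 0.0657%, 0.0304%, 0.0353% and 0.0954%. The groups overlapped, with 3 of 5 RvD6 ganglia above all vehicle ganglia and the RvD6si values spanning nearly the whole range. The log2 difference of RvD6si from vehicle was 0.17 (95% interval -0.38 to 0.71, adjusted p = 0.810 by edgeR). That of RvD6 from vehicle was 0.69 (0.15 to 1.24, unadjusted p = 0.0156, adjusted p = 0.265 by edgeR), and that of RvD6si from RvD6 was -0.53 (-1.07 to 0.017, adjusted p = 0.579). The first changed sign without RvD6si replicate 15, to -0.07. Counts on CT010467.1 were 164 ± 53.5 times those on Gm26917 with vehicle, 112 ± 30.3 times with RvD6 and 110 ± 46.5 times with RvD6si (SD, n = 5 each).

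Lars2 varied more between ganglia than any of the other 4 rows, with a highest share 9.26 times its lowest. Vehicle replicates 1 to 5 held 0.259%, 0.251%, 0.121%, 0.171% and 0.152% of counts. RvD6 replicates 6 to 10 held 0.228%, 0.585%, 0.181%, 0.133% and 0.342%. RvD6si replicates 11 to 15 held 0.127%, 0.924%, 0.0998%, 0.132% and 0.362%. RvD6 replicate 7 and RvD6si replicate 12 stood high, and the other values overlapped in all groups. No difference passed the test, at 0.70 for RvD6si against vehicle (95% interval -0.36 to 1.77, adjusted p = 0.530 by edgeR), 0.61 for RvD6 against vehicle (-0.45 to 1.67, adjusted p = 0.637) and 0.10 for RvD6si against RvD6 (-0.96 to 1.15, adjusted p = 0.980). The first changed sign to -0.17 without RvD6si replicate 12. The last changed sign to -0.77 without RvD6si replicate 12, to -0.03 without RvD6 replicate 8 and to -0.09 without RvD6 replicate 9.

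**Figure D3:**
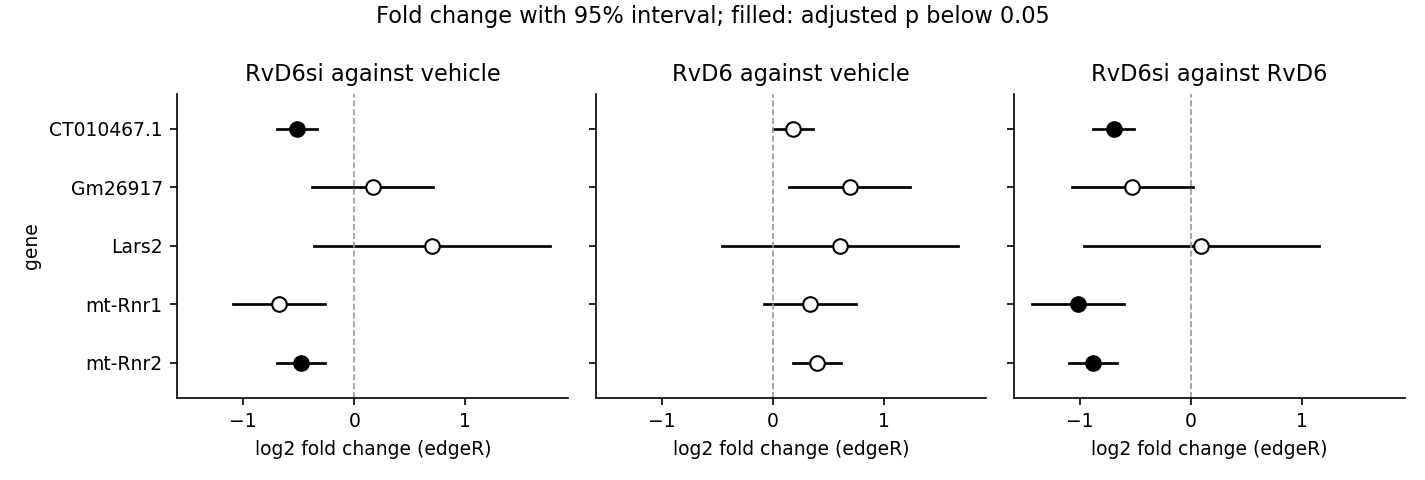
Log2 fold changes of the 5 rows in edgeR for the 3 comparisons, with 95% intervals, where filled points have an adjusted p below 0.05. Filled points lie between -1.02 and -0.48, all of them decreases in RvD6si, while the intervals of Lars2 are the widest.

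Thus 2 of 5 rows were called lower in RvD6si against vehicle, 3 of 5 in RvD6si against RvD6 and 0 of 5 in RvD6 against vehicle. Of all genes tested, 0.145%, 0.223% and 0.00% were called lower in the same order. The comparisons share groups, so their calls are not independent of each other. The stereoisomers, taken at the same day and in the same treatment schedule, differed beyond the adjusted threshold on CT010467.1, mt-Rnr1 and mt-Rnr2 among the 5 rows compared. For Gm26917 and Lars2 the intervals of the difference between the stereoisomers, -1.07 to 0.017 and -0.96 to 1.15, include both a decrease and an increase.

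Lars2 had a near double in the table. Across the 15 samples its log2 CPM followed that of Gm15564 (chr16:35966752-35983230, minus strand, annotated as antisense) with a Spearman rho of 0.98 and a Pearson r of 0.99, the highest of 16567 genes. Gm15564 held 0.366% of counts in RvD6si replicate 12 and 0.241% in RvD6 replicate 7, the same 2 ganglia in which Lars2 was highest. The ratio of Lars2 to Gm15564 stayed between 2.41 and 2.93 (median 2.54) while Lars2 itself ranged from 0.0998% to 0.924%. Gm15564 did not match Lars2 under the identity rule. Ncor1, a corepressor of nuclear receptors, came next (rho 0.95), then the pseudogene Gm16580 (rho 0.94).

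**Figure D4:**
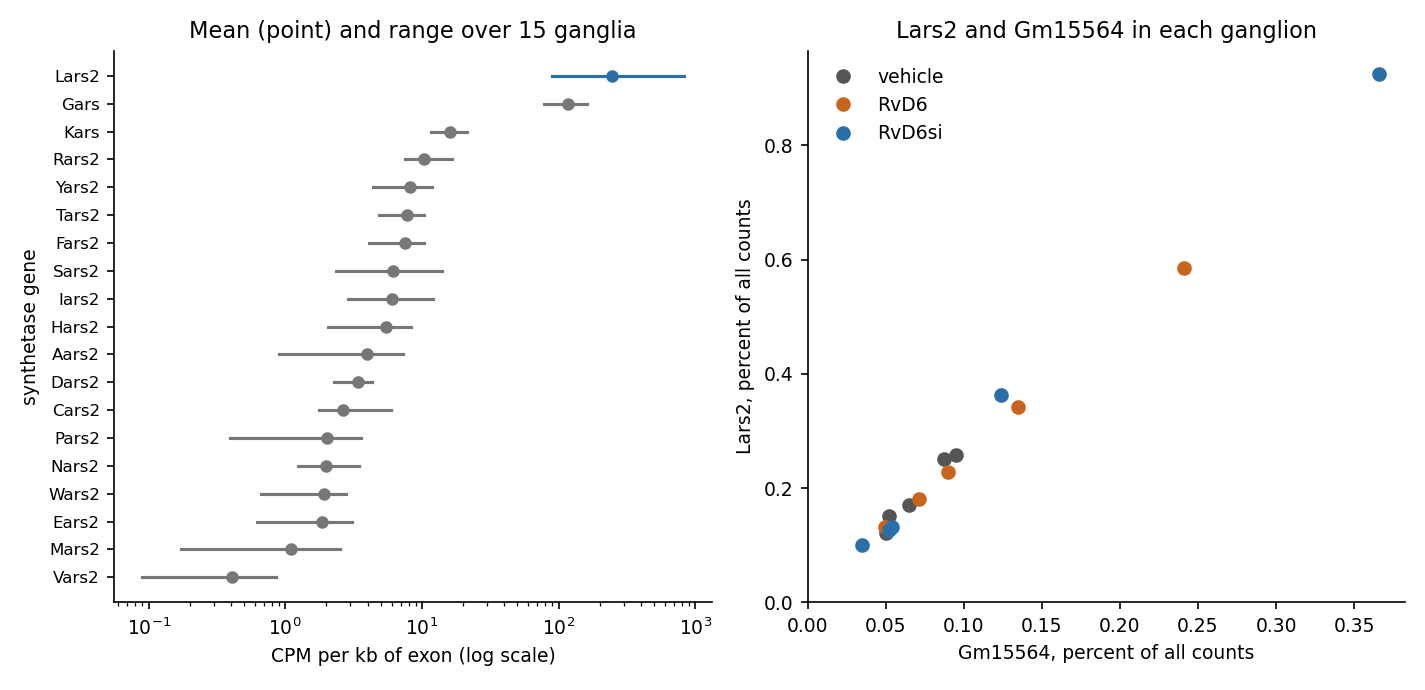
Left, mean (points) and range (lines) of CPM per kb of exon over 15 ganglia on a log axis for Lars2 and 18 other genes for mitochondrial synthetases. Right, Lars2 against Gm15564 as percent of counts in each ganglion, where all 15 points lie near a line with a ratio between 2.41 and 2.93.

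The same search gave other nearest genes for the remaining rows, each over 15 samples and with no test. For mt-Rnr2 the highest rho belonged to mt-Co3, a subunit of cytochrome oxidase (0.89), followed by Asb2 (0.88) and Gm28437, an unprocessed pseudogene on chromosome 1 (0.88). A sequence match between Gm28437 and mt-Co3 was not looked for, so their values may not be separate. For mt-Rnr1 the nearest genes were Nktr (0.93), Rgs19 (0.89) and the lincRNA Miat (0.88). For CT010467.1 they were Cdkn1b, an inhibitor of cyclin-dependent kinases (0.91), Pde7a (0.89) and Gng5-ps (0.88). For Gm26917 they were Crim1 (0.90), Mbd2 (0.85) and Hdac7 (0.85), the last a histone deacetylase. Depth and library composition are shared by all points of such a correlation, and the values are pooled over groups that lay apart for CT010467.1 and mt-Rnr2. After the group means were taken out, rho was 0.45, 0.63 and 0.52 for the 3 genes of CT010467.1 in the order given, 0.53, 0.41 and 0.53 for those of mt-Rnr2, and 0.46, 0.45 and 0.50 for those of mt-Rnr1. It was 0.75, 0.76 and 0.73 for those of Gm26917, and 0.99, 0.92 and 0.96 for Gm15564, Ncor1 and Gm16580 with Lars2.

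Within groups the Pearson r between rows ranged from -0.027 to 0.64 over the 10 pairs. After the group means of log2 CPM were taken out, CT010467.1 and mt-Rnr2, the 2 most counted rows, had a Pearson r of 0.098 over 15 samples (Spearman rho 0.20, permutation p = 0.776 and 0.50). The highest r values were those of Lars2 with mt-Rnr1 (r 0.64, rho 0.58, permutation p = 0.0338 and 0.0542) and mt-Rnr1 with mt-Rnr2 (r 0.56, rho 0.50, permutation p = 0.0307 and 0.0717), while the highest rho, 0.68, was that of Gm26917 with Lars2 (permutation p = 0.0261). None of the 10 pairs passed adjustment over the 10, where the lowest adjusted p was 0.169 for r and 0.179 for rho. With 15 samples this does not show that the rows vary independently. Pooled r and rho are left out of this paragraph for pairs with a row whose groups lay apart. How such pooled results shifted is given at the end of the report. Gm26917 and Lars2, whose groups overlapped, had a pooled r of 0.56 and rho of 0.63 (permutation adjusted p = 0.0593 and 0.0338), and r dropped to 0.45 (adjusted p = 0.244) without the 2 samples farthest from the median.

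Most mitochondrial mRNAs are cut from the same long transcript as the rRNAs, so they were set beside them. The 13 mRNAs held 3.36% ± 0.592 of counts with vehicle, 3.97% ± 0.740 with RvD6 and 3.12% ± 0.286 with RvD6si (SD, n = 5 each), and the groups overlapped. In two-sided exact permutation tests of 5 against 5, RvD6si differed from RvD6 by -0.852 percentage points (p = 0.0397) and this did not hold after adjustment over 6 tests (adjusted p = 0.143). The exact tests gave p = 0.444 for RvD6si against vehicle and p = 0.190 for RvD6 against vehicle. None of the 13 mRNAs was called by edgeR in any comparison. In RvD6si against RvD6 the fitted log2 value was negative for 13 of 13, with a median of -0.43 beside 0.00 for all genes, and 9 had an unadjusted p below 0.05. mt-Nd5 and mt-Co3 came nearest to the threshold at -0.50 and -0.59 (adjusted p = 0.0603 and 0.0933 by edgeR). Against vehicle the medians were -0.10 for RvD6si and 0.33 for RvD6. With median-of-ratios (RLE) scaling the medians were -0.44, -0.09 and 0.34 in the same order.

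Relative to the mRNAs, the mitochondrial rRNAs were again lowest in RvD6si. Counts on mt-Rnr1 and mt-Rnr2 together were 1.40 ± 0.250 times those on the 13 mRNAs with vehicle, 1.55 ± 0.145 times with RvD6 and 1.11 ± 0.212 times with RvD6si (SD, n = 5 each). The ratio in RvD6si ganglia ran from 0.880 to 1.37 and in RvD6 ganglia from 1.37 to 1.73, and the highest RvD6si value, 1.373, just passed the lowest RvD6 value, 1.372. Vehicle overlapped both groups. The ratio of mt-Rnr2 to mt-Rnr1 was 7.22 ± 1.27, 7.37 ± 0.850 and 8.67 ± 2.33 for vehicle, RvD6 and RvD6si, with overlap in all groups. CT010467.1 to mt-Rnr2, which sets the nuclear against the mitochondrial rRNA, was 1.84 ± 0.241, 1.59 ± 0.259 and 1.80 ± 0.230 in the same order, also with overlap.

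**Figure D5:**
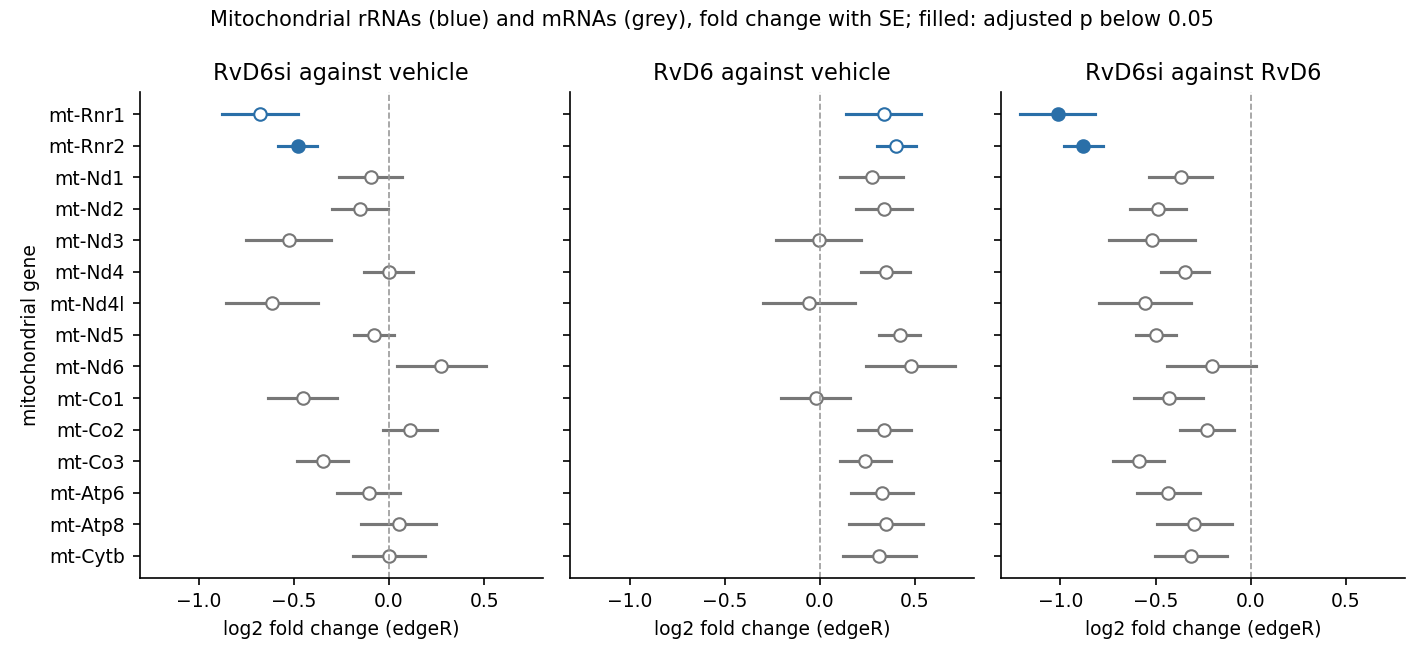
Log2 fold changes in edgeR, with SE, of the 2 mitochondrial rRNAs (blue) and 13 mitochondrial mRNAs (grey) for the 3 comparisons, where filled points have an adjusted p below 0.05. Only mt-Rnr2 in the first panel and both rRNAs in the third are filled, and in the third all 13 mRNAs lie between -0.59 and -0.20.

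The genes that make rRNA were examined next. Of 15 genes for RNA polymerase I and its factors, among them Polr1a for the largest subunit, Ubtf for the factor that holds the repeats open and Rrn3 for the initiation factor, 0 were called in any comparison. The median log2 value was -0.18 in RvD6si and -0.29 in RvD6 against vehicle, and -0.10 between the lipids. Of 37 nucleolar processing genes, such as Fbl for the methyltransferase fibrillarin, Ncl for nucleolin and Npm1 for nucleophosmin, 0 were called, with medians of -0.12, -0.09 and -0.01 in the same order. Medians over all 16567 genes were 0.02, 0.02 and 0.00. At an unadjusted p below 0.05 there were 2, 0 and 1 of the polymerase genes and 5, 3 and 5 of the processing genes, where 2648, 2256 and 1461 of the 16567 genes passed.

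Genes for mitochondrial transcription and rRNA maturation gave 0 calls too. Of 38 listed, 35 could be tested, among them Polrmt for the mitochondrial RNA polymerase, Tfam for the packaging factor of mitochondrial DNA and Nsun4 for an rRNA methyltransferase. Their medians were -0.03, -0.18 and 0.11 in the order used above, and 11, 4 and 4 of them had an unadjusted p below 0.05. The 18 synthetase genes beside Lars2 had medians of -0.10, -0.23 and 0.11 and 0 calls, though with RLE scaling 1 was called in RvD6si against vehicle. Of the mitochondrial tRNAs next to the rRNAs, mt-Tf and mt-Tl1 passed the filter, neither was called, and their shares were under 0.000604% of counts in every sample.

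The mean summed shares of erythroid, neutrophil precursor and skeletal muscle markers were higher in RvD6 than in vehicle, with overlap between ganglia for muscle. Markers of sensory neurons, such as Tubb3 and Prph, were detected in all 15 ganglia, at a summed 1.03% to 1.16% of counts with vehicle, 0.584% to 1.03% with RvD6 and 1.04% to 1.27% with RvD6si. All RvD6 ganglia exceeded all vehicle ganglia in the 7 erythroid markers, at 0.572% to 1.05% against 0.226% to 0.497%, and in the 9 neutrophil precursor markers, at 0.0688% to 0.228% against 0.0111% to 0.0579%. RvD6si ganglia spanned 0.0968% to 1.29% and 0.00548% to 0.210% for these lists. The skeletal muscle markers held 0.00947% to 0.308% with RvD6, 0.00163% to 0.0157% with vehicle and 0.00104% to 0.00330% with RvD6si, with the highest values in RvD6 replicates 8 and 9. Among these markers Tnnc2 was at 0 in 1 vehicle and 2 RvD6si ganglia, Mb in 1 vehicle and 1 RvD6si ganglion, and Atp2a1 in 1 RvD6si ganglion. Of 9 muscle genes tested, 8 were called lower in RvD6si against RvD6. No other marker was called in any comparison, among 10 of sensory neurons, 7 of Schwann cells and satellite glia, 7 erythroid, 9 of neutrophil precursors and 3 of the pituitary. All 10 neuronal markers had negative fitted log2 values in RvD6 against vehicle (median -0.35) and positive ones in RvD6si against RvD6 (median 0.33).

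RvD6si replicate 15 had the highest erythroid share of all ganglia, 1.29%, and a neutrophil precursor share of 0.210%. Its CT010467.1 and mt-Rnr2 shares stayed below every vehicle and every RvD6 value. Among the RvD6si ganglia it had the highest CT010467.1 share, 6.24%, and the highest Gm26917 share, 0.0954%. Its mt-Rnr2 share, 3.10%, was the median of that group. Without RvD6 replicates 8 and 9, RvD6si against RvD6 had 2 called genes, which were CT010467.1 and mt-Rnr2, at -0.72 and -0.81 (adjusted p = 0.00550 for both by edgeR), and mt-Rnr1 was at -0.94 (adjusted p = 0.221). With the muscle marker mean as a covariate the 3 values were -0.73, -0.77 and -1.04 for CT010467.1, mt-Rnr2 and mt-Rnr1, and none passed (adjusted p = 0.547 for mt-Rnr1 by edgeR). With the erythroid marker mean they were -0.62, -0.93 and -0.74, and none passed either (adjusted p = 1.000 for mt-Rnr1 by edgeR). Beyond these values, the part of the markers in the result was not tested.

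Library size was compared between the groups as well. Totals averaged 8802623 ± 1016727 counts with vehicle, 7218622 ± 1715253 with RvD6 and 6743118 ± 1750421 with RvD6si (SD, n = 5 each). By exact permutation, p was 0.0476 for RvD6si and 0.119 for RvD6 against vehicle, and 0.659 between the lipids, none of which passed adjustment over 6 tests (adjusted p = 0.143, 0.238 and 0.659). The order of RvD6 and RvD6si in mean total changed without RvD6 replicate 6 or RvD6si replicate 15.

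Removing the 5 rows before normalization was tried because they weigh on library size. With them gone, 109 genes were called in RvD6si against vehicle, 36 in RvD6si against RvD6 and 0 in RvD6 against vehicle, against 111, 39 and 0 with them. The differences of 2 and 3 equal the number of the 5 rows called in those comparisons.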

How the data were processed

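RNA of each ganglion was reverse transcribed with an oligo-dT primer, amplified and sequenced (adapted Smart-seq2). Per the file headers and the labels, the authors aligned the reads to GRCm38 with Rsubread and counted them on exons of GENCODE release 22 by gene with featureCounts (1.5.0-p1 in the header, Subread 1.6.5 in the submitters' processing notes), without strand and without counting reads on several genes. The deposited values are raw counts of 55573 genes, with a column of exonic gene lengths. The file header also shows no option set in featureCounts for reads reported at several positions. How the aligner placed reads with several equal positions is not given in the sources used here, and rRNA reads are of that kind. Groups follow the treatment label, 5 samples each, and nothing in the sources names a batch. Whether the 5 samples of a group were prepared separately at every step is not stated, so p-values measure the spread between these samples.

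Shares are percentages of the total count of a sample. Groups were compared with edgeR 4.0.16 (R 4.3.3; quasi-likelihood F test) on all 15 samples and 3 groups, with TMM normalization, filterByExpr (minimum count 10, minimum total 15), which kept 16567 genes and all 5 rows, and Benjamini-Hochberg adjustment at 0.05. The SE is the log2 fold change over the square root of F. Symbols came from GENCODE release 21, which named 55394 of the rows. Sequences were compared with blastn, and 2-sided exact permutation tests and correlations (100000 resamples) were run in Python 3.11.15 with SciPy 1.17.1. The steps were tested on simulated data. Alternatives were DESeq2 1.42.0, fits of the 2 groups compared, RLE normalization, no filter, at least 10 counts in every sample, the 5 rows removed, a muscle marker covariate, and each sample left out in turn. An erythroid marker covariate and the removal of RvD6 replicates 8 and 9 or RvD6si replicates 12 and 15 were added after seeing the data, as were the within-group values of rho for the genes most like each row. The 5 rows, the gene lists and the markers were chosen with earlier results of these data known. Genes named are the 5 rows, genes of the lists past the threshold or given as examples of their roles, the 3 genes most like each row by Spearman rho of log2 CPM (prior count 2), genes that match a row in sequence and genes that overlap one. mt-Nd5, mt-Co3, Gm20594, Cep295, Tnnc2, Mb, Atp2a1, Vars2, Gars, Kars, mt-Nd1 and mt-Nd3 were named after their values were seen.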

Additional observations from a re-analysis of the deposited data

Results flagged for a closer look

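The difference between the lipids passed the edgeR test for 3 of the 5 rows, which is what brought them here. RvD6si minus RvD6 was -0.70 on the log2 scale for CT010467.1 (adjusted p = 0.00168), -1.02 for mt-Rnr1 (adjusted p = 0.0392) and -0.88 for mt-Rnr2 (adjusted p = 0.00126). RvD6si was lower in 5 of 5 ganglia than every RvD6 ganglion for CT010467.1 and mt-Rnr2, and in 4 of 5 for mt-Rnr1. Of all genes tested, 0.235% were called in this comparison and 0.223% were called lower. All RvD6si shares lay below all RvD6 shares for 0.791% of genes. The skeletal muscle, erythroid and neutrophil precursor markers also stood higher in RvD6, and their part in the result was not tested beyond the values in the report.

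In 33 sets of 5 samples (shares of each row and of their sum, and the count ratios, by group) no single ganglion stood apart from the others by Dixon's ratio, with a critical value of 0.71. Chance alone would be expected to mark about 1 in 20 such sets.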

How the results depend on the processing

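No paired analysis was possible because the groups share no replicate number. Of the results recomputed under the alternatives, those named neither here nor in the report kept direction and call. Genes called in RvD6si against vehicle (111) came to 920 with DESeq2, 315 with at least 10 counts in every sample and 457 without RvD6si replicates 12 and 15, and to between 0 and 229 with each sample left out. The 2 rows called there became 0 without a filter (CT010467.1 adjusted p = 0.0754), 1 with at least 10 counts in every sample, 1 with the muscle covariate and 0 to 3 with each sample left out. In RvD6 against vehicle (0 genes) the counts were 369 with DESeq2, 38 with the 2 groups alone, 56 without a filter, 24 with the stricter filter, 2 with the muscle covariate and 0 to 51 with each sample left out. DESeq2 called 1 of the 5 rows there, mt-Rnr2. In RvD6si against RvD6 (39 genes) they were 185, 17, 59, 23 and 2 in that order, then 0 with the erythroid covariate, 2 without RvD6 replicates 8 and 9, 215 without RvD6si replicates 12 and 15, and 2 to 156 with each sample left out. The 3 rows called became 0 with either covariate. Without RvD6si replicates 12 and 15, mt-Rnr1 was called against vehicle (adjusted p = 0.00863 by edgeR). In RvD6 against vehicle the SE of each of the 5 rows was wider with either covariate. In RvD6si against RvD6 the SE of CT010467.1 was 0.159 with the muscle covariate and 0.0864 in the main fit. The cause of these shifts was not tested.

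With the 5 rows out of the denominator, their summed share differed by -7.26 percentage points between RvD6si and RvD6 in place of -5.60. Gm26917 in RvD6si against vehicle reversed to -0.25 (share difference -0.00603) without RvD6si replicates 12 and 15, and ranged from -0.071 to 0.32 (share -0.000215 to 0.0160) with each sample left out. Lars2 reversed to -0.73 (share -0.0711) by the same removal, to -0.0389 in share by medians, and ranged from -0.17 to 0.93 (share -0.0104 to 0.196). In RvD6si against RvD6, Lars2 reversed to -0.93 with the muscle covariate, -0.29 (share -0.0559) without RvD6 replicates 8 and 9, -1.32 (share -0.174) without RvD6si replicates 12 and 15 and -0.0965 in share by medians, with a range of -0.77 to 0.49 (share -0.113 to 0.108). In RvD6 against vehicle it reversed to -0.49 with the erythroid covariate. Correlations reversed for CT010467.1 with Lars2 (-0.296 without the 2 farthest samples), CT010467.1 with mt-Rnr1 (-0.0267 within groups) and Lars2 with mt-Rnr2 (-0.000622 within groups). CT010467.1 with mt-Rnr2 and mt-Rnr1 with mt-Rnr2 passed over all samples and not within groups, and CT010467.1 with mt-Rnr1 did not pass without the 2 farthest samples (adjusted p = 0.128). For pairs with CT010467.1 or mt-Rnr2, values pooled over the groups also hold the differences between groups. Gm26917 with Lars2 and with mt-Rnr1 passed once the 5 rows were out of the denominator (adjusted p = 0.0369 for both). Total counts of RvD6si against RvD6 had an adjusted p of 0.444 to 0.921 with each sample left out, and the difference changed sign without RvD6 replicate 6 or RvD6si replicate 15. Depth did not limit the shares of the 5 rows, whereas for genes with few counts, such as the mitochondrial tRNAs, the intervals are wide.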
